A study of Brassica napus with 30 samples.

Results

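Seeds of 2 genotypes of oilseed rape (Brassica napus), JY1621 and JY1605, were compared after 8 h of imbibition at 8 °C. Each genotype gave 3 libraries in this condition, 6 of the 30 in the series, and per the labels' protocols 100 seeds went into each RNA sample. The members are the 57945 gene models, of 100919 in the deposited count table, that reached a CPM (counts scaled to a fixed library total) of 0.531 in 3 or more of the 30 libraries. The other 24 libraries hold dry seeds of both genotypes and seeds imbibed at 25 °C (8 h and 36 h) or at 8 °C for 36 h, with 3 libraries per group. The 8 h seeds were taken at zeitgeber time 8, dry seeds at 0 and 36 h seeds at 12, so the 2 genotypes at 8 h and 8 °C share sampling time, time of day and temperature. The series is about temperature-dependent germination, but the labels name no germination trait for either genotype. The 3 libraries of a group are labelled as biological replications with no seed lot named, so p-values measure the spread between these libraries, which may be technical.

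Oilseed rape is an allotetraploid with an A and a C subgenome, and many of its genes exist as homoeologous pairs. A dry seed holds messenger RNA stored during maturation. When it takes up water, stored transcripts are degraded and new ones are made, and low temperature can slow both. In bulk RNA of whole seeds, fewer cells of a type and less RNA per cell cannot be told apart.

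The files give gene IDs without names, and 0 of them matched the RefSeq gene table used here, so no functions are given and no marker genes could be looked up for the seed label. Chromosomes and the order along them were read from the IDs. The sources used here do not say how reads that match both homoeologous copies were counted, and a value for one copy may include reads from its partner.

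The 6 libraries correlated more within than between genotypes. Total counts were 16025722, 16131626 and 16884701 in JY1621, against 15556806, 22967687 and 17995590 in JY1605. Pearson correlations of log2 CPM were 0.975 to 0.976 within JY1621, 0.977 to 0.981 within JY1605 and 0.895 to 0.906 between the genotypes, across gene models. Library pairs of 1 genotype differed by more than sampling noise, with a chi-square of 2.61 to 5.12 per degree of freedom.

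At 8 h and 8 °C, JY1621 exceeded JY1605 in 7009 gene models and lay below it in 5149, 12.1% and 8.89% of those tested and 21.0% in all. A call needed a log2 difference of 1 or more in size and a p under 0.05 in edgeR's quasi-likelihood test, adjusted over all 57945 by the Benjamini-Hochberg method. The median log2 difference was 1.94 among higher calls (quartiles 1.37 and 3.44) and -1.88 among lower calls (quartiles -3.08 and -1.31). With groups under 3 summed counts set to 3, these medians were 1.87 and -1.85. Differences of 8-fold or more were called for 2069 higher and 1347 lower gene models, and of 32-fold or more for 1015 and 434. Among gene models with a mean of at least 5 CPM the median standard error of the log2 difference was 0.13, and among all tested 0.23.

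In most calls the libraries of the 2 genotypes lay apart. The ranges did not overlap for 6564 of the higher and 4988 of the lower calls, while 606 calls overlapped. Over all tested gene models 48.1% had ranges that did not overlap. The balance of directions depended on fold minimum and scaling. Without a fold minimum, 12082 were higher and 12554 lower, 42.5% in all. With library size scaling in place of composition factors, 8912 were higher and 4086 lower, and the median of all gene models moved by 0.191 (log2).

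Most of the calls were also made in dry seeds. Of the 7009 higher calls, 4345 (62%) were also called higher in dry seeds, 69.4% of the dry-seed list, where 10.8% of all tested gene models were higher. Of the 5149 lower calls, 3865 (75.1%) were called lower in dry seeds, 70.1% of that list, against 9.52% of all tested. Opposite calls in dry seeds numbered 29 among the higher and 4 among the lower gene models. The 2 comparisons contrast different libraries, but all 30 share the filter, the scaling and the estimate of spread. A fit of the 6 libraries alone, with the filter applied anew, called 5486 higher and 3956 lower of 44736 gene models.

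The other imbibed seeds shared fewer of the calls. In 8 h 25 °C seeds, 3575 of the higher calls (51%) and 3372 of the lower calls (65.5%) were found again, where 12.9% and 11.6% of all tested gene models were called. These were 47.8% and 50.2% of the warm lists. In 36 h 8 °C seeds, 3283 (46.8%) and 3404 (66.1%) were found again, against 12.1% and 12.8% of all, and these were 46.7% and 46.1% of those lists. In 36 h 25 °C seeds, 3217 (45.9%) of the higher calls were higher again and 1067 were lower. Of the lower calls 3121 (60.6%) were lower there and 304 higher. That comparison called 21.1% of all tested gene models higher and 27.0% lower, and its lists were shared to 26.3% and 19.9%.

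**Figure D1:**
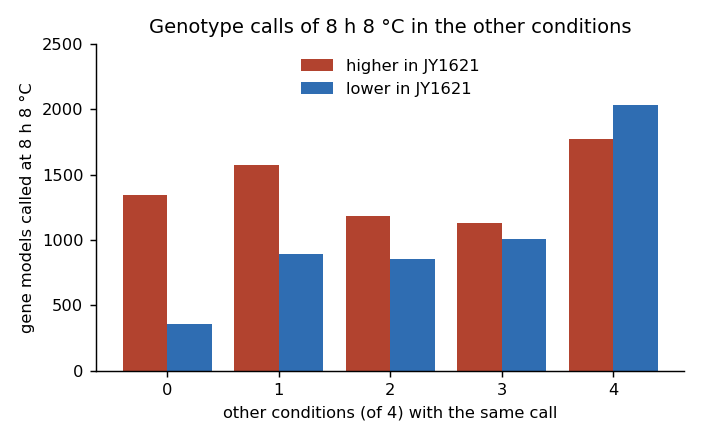
Gene models called between JY1621 and JY1605 at 8 h and 8 °C (y axis, number), by how many of the 4 other conditions gave the same call (x axis), with higher in JY1621 in red and lower in blue. The tallest bars stand at 4 conditions, 1771 higher and 2033 lower, and the higher calls have more members than the lower ones at 0 conditions, 1346 against 359.

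A core of 1771 higher and 2033 lower gene models was called in the same direction in all 5 conditions, 25.3% and 39.5% of the calls at 8 h and 8 °C and 3.06% and 3.51% of all tested gene models. At the other end, 1346 higher calls (19.2%) and 359 lower calls (6.97%) were made in the same direction in none of the other conditions. Gene models called in the opposite direction elsewhere were not taken out. Their median log2 difference was 1.53 for the higher and -1.16 for the lower gene models, against 1.94 and -1.88 over all calls, and 49.5% and 80.2% were under 1.5 in size. The higher ones had a low median level of 0.906 CPM over the 6 libraries and the lower ones 5.24 CPM. Medians of the higher ones were 0.48 in dry seeds, 0.08 in 8 h 25 °C, -0.55 in 36 h 25 °C and 0.02 in 36 h 8 °C seeds. Those of the lower ones were -0.74, -0.42, -0.08 and -0.34. A missing call does not show that the genotypes were alike. With library size scaling 2127 higher and 145 lower calls were of this kind.

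The difference between conditions was tested directly. The log2 difference between the genotypes at 8 h and 8 °C was higher than in dry seeds for 687 gene models and lower for 229, 1.19% and 0.395% of those tested, 1.58% in all (edgeR quasi-likelihood test, same thresholds). Against 8 h at 25 °C the same test called 4016 higher and 3427 lower, 6.93% and 5.91%. Between these conditions some stretches of neighbouring gene models on A01, A05, A06 and A09 shifted together, as given below. With library size scaling the calls were 906 higher and 118 lower against dry seeds, and 6481 and 1643 against 8 h at 25 °C. The number of lower calls against dry seeds moved with single libraries. It was 101 without replicate 2 of JY1605, 141 without replicate 3 of JY1621, 356 without replicate 1 of JY1605 and 392 without replicate 1 of JY1621. The higher calls numbered 483 to 786 when 1 library was left out.

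From dry seeds to 8 h at 8 °C, 3483 gene models rose and 278 fell in JY1621, 6.01% and 0.480% of those tested, and 1728 rose and 245 fell in JY1605, 2.98% and 0.423%. Whether these numbers differ between the genotypes was tested only gene by gene, by the difference of the genotype effect above. For the 687 gene models the median change from dry seeds was 1.71 (log2) in JY1621 and 0.1 in JY1605, and the genotype difference had a median of 0.86 at 8 h and 8 °C and -0.77 in dry seeds. All these values share libraries with the test that chose the gene models and are a description. For the 229 the median change was -0.33 in JY1621 and 1.1 in JY1605, with genotype differences of -0.42 after 8 h and 1.05 in dry seeds.

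The means of the other conditions do not enter the contrast that chose the 687 gene models, although their libraries share its filter and estimate of spread. A fit of only the groups compared, with the filter applied anew, called 508 higher and 178 lower of 46664 gene models. The median of the mean log2 CPM of the 687 was 3.37 in JY1621 and 3.46 in JY1605 after 36 h at 8 °C. It was 3.09 and 2.85 in 8 h 25 °C seeds. In 8 h 8 °C seeds it was 2.44 in JY1621 and 1.82 in JY1605, and in dry seeds 0.95 and 1.52. By 36 h in the cold the median genotype difference was -0.08, while it was 0.28 in 8 h 25 °C and 0.4 in 36 h 25 °C seeds. In 36 h 8 °C seeds 69 of the 687 were called higher in JY1621 and 95 lower, shares close to the 12.1% and 12.8% of all tested gene models. In 8 h 25 °C seeds 131 were higher and 54 lower, where 12.9% and 11.6% of all tested gene models were called. Between 8 h and 36 h at 25 °C, 157 of them (22.9%) fell in both genotypes and 27 (3.93%) rose, where 7.61% of all tested gene models fell and 13.5% rose. Of the 229, 43 (18.8%) rose in both and 2 (0.873%) fell.

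Among gene models that respond to warm imbibition the balance of directions between the genotypes differed from that of all tested gene models, while most of them were not called. From dry seeds to 8 h at 25 °C, 9259 gene models (16.0% of those tested) rose in both genotypes. Of these, 1718 (18.6%) were higher and 470 (5.08%) lower in JY1621 at 8 h and 8 °C, against 12.1% and 8.89% of all tested. Their median log2 difference was 0.3, and 64.8% of them had a positive one, against 49.6% of all. Another 7353 (12.7%) fell in both, and of these 575 (7.82%) were higher and 994 (13.5%) lower, with a median of -0.15. In dry seeds the medians of the 2 sets were 0.02 and -0.03. The sets were chosen from the means of dry and 8 h 25 °C libraries, which enter the calls at 8 h and 8 °C only through the shared filter, scaling and estimate of spread.

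The share of counts in these sets showed the same order in single libraries. Gene models that rose in warm imbibition took 7.32%, 8.18% and 7.14% of the counts in JY1621 at 8 h and 8 °C, against 6.11%, 5.94% and 5.95% in JY1605. The libraries did not overlap, and replicate 2 of JY1621 was the highest (p = 0.1 in an exact two-sided permutation test, the lowest value possible with 3 libraries against 3). Gene models that fell took 47.2%, 45.4% and 47.8% in JY1621, against 49.4%, 49.6% and 49.5% in JY1605, again without overlap (exact two-sided permutation test, p = 0.1). In dry seeds, which helped choose the sets, the first share was 4.56% ± 0.0805 in JY1621 and 4.4% ± 0.123 in JY1605, and the second 53.8% ± 0.725 and 55.1% ± 0.546 (SD, n = 3). With library size scaling the sets held 16011 and 3654 gene models. Of the first, 3163 (19.8%) were higher and 692 (4.32%) lower, against 15.4% and 7.05% of all. Of the second, 375 (10.3%) were higher and 460 (12.6%) lower.

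**Figure D2:**
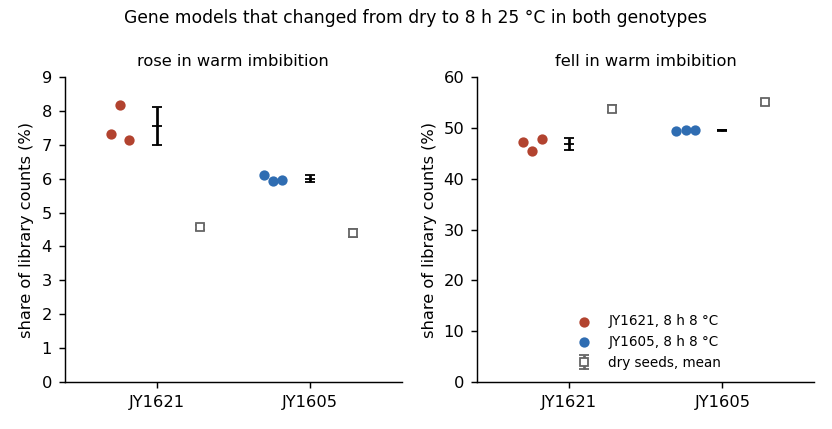
Share of library counts (y axis, %) in gene models that rose (left) or fell (right) from dry seeds to 8 h at 25 °C in both genotypes. Filled points are single libraries at 8 h and 8 °C, JY1621 in red and JY1605 in blue, the black mark beside them is the mean ± SD (n = 3), and open squares are the means of dry seeds. All 3 JY1621 libraries lie above the JY1605 libraries on the left, 7.14% or more against 6.11% or less, and below them on the right.

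At 8 h and 8 °C a smaller share of counts went to the most abundant transcripts in JY1621. The 100 gene models with most counts took 23.9%, 22.5% and 23.7% of the libraries in JY1621, against 24.8%, 25.3% and 25.2% in JY1605 (exact two-sided permutation test, p = 0.1). The order was the same in dry seeds, with 28.7%, 28.3% and 27.3% in JY1621, against 28.9%, 28.9% and 29.6% in JY1605. It was reversed in 8 h 25 °C seeds, with 9.03%, 8.8% and 8.46% in JY1621, against 7.39%, 7.82% and 7.56% in JY1605. Gene models that reached 1 CPM at 8 h and 8 °C numbered 39911, 40392 and 39981 in JY1621, against 38151, 37942 and 37797 in JY1605 (exact two-sided permutation test, p = 0.1). Neither measure overlapped between the genotypes at 8 h and 8 °C, where the deepest library was a JY1605 one. The 2 top lists shared 79 gene models. Of the 121 gene models on either list, 12 were called higher and 21 lower in JY1621, where 12.1% and 8.89% of all tested gene models were called.

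The median difference varied with transcript level. Levels were taken from the 24 other libraries, and counts are not corrected for gene length. Among the 7912 gene models under 0.5 CPM the median log2 difference was 0.13 (0 with groups under 3 counts set to 3). Among the 5680 gene models with a mean of 0.5 to 1 CPM, 18.9% were higher and 10.8% lower in JY1621, with a median log2 difference of 0.21 (0.15 with groups under 3 counts set to 3). Among the 14518 at 10 to 50 CPM, 6.93% were higher and 7.72% lower, with a median of -0.1. Among the 1454 above 100 CPM, 6.19% were higher and 7.98% lower, with a median of -0.17. In dry seeds the medians of the last 3 classes were 0.13, -0.04 and -0.05. They were -0.05, -0.01 and 0.09 in 8 h 25 °C seeds and -0.03, 0.02 and 0.03 in 36 h 8 °C seeds. In 36 h 25 °C seeds they ran the opposite way, at -0.68, 0.22 and 0.81. With library size scaling the 3 medians at 8 h and 8 °C were all positive, at 0.4, 0.1 and 0.03, and relative to the median of all gene models they were 0.21, -0.09 and -0.16.

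Calls were spread over the genome, and some chromosomes held more of them. C01 had the highest share of gene models higher in JY1621, 541 of 2816 (19.2%), followed by A02 with 419 of 2374 (17.6%). C02 had the highest share of lower ones, 564 of 2825 (20%), followed by A01 with 380 of 2656 (14.3%). Lower calls outnumbered higher ones on 3 chromosomes, A01, A10 (259 against 200) and C02. On C09 only 214 of 3535 (6.05%) were lower. The same chromosomes stood out in dry seeds, where 18.8% were higher on C01 and 20.5% lower on C02.

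**Figure D3:**
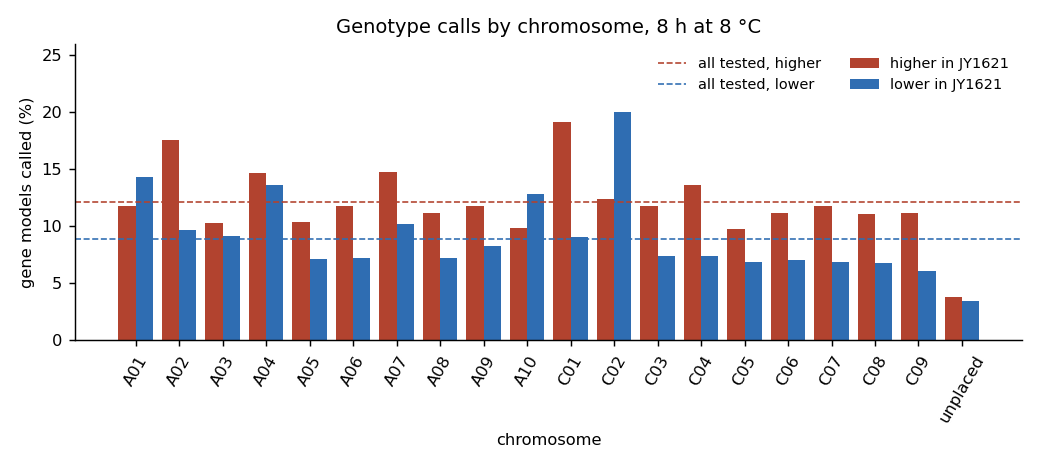
Share of tested gene models (y axis, %) called higher (red) and lower (blue) in JY1621 at 8 h and 8 °C on each chromosome and on unplaced scaffolds (x axis), with dashed lines at the shares over all tested, 12.1% and 8.89%. C01 and A02 rise above the red line, at 19.2% and 17.6%, and C02 and A01 above the blue one, at 20% and 14.3%.

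Part of the calls lay in stretches of neighbouring gene models. The tested gene models were cut along each chromosome into 1125 windows of 50, and a window was chosen where the median log2 difference in dry seeds was at least 1 in size. This held for 35 windows, 16 higher and 19 lower in JY1621. At 8 h and 8 °C all 35 had the same sign and 33 still had a median of at least 1 in size (30 with groups under 3 counts set to 3). Of the windows not chosen, 2 reached that size at 8 h and 8 °C, and 5th and 95th percentiles of their medians were -0.279 and 0.32. The chosen windows held 1750 gene models, 3.02% of those tested, but 6.68% of the higher and 13.8% of the lower calls. Outside them 11.6% of gene models were higher and 7.9% lower, so most calls lay elsewhere.

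**Figure D4:**
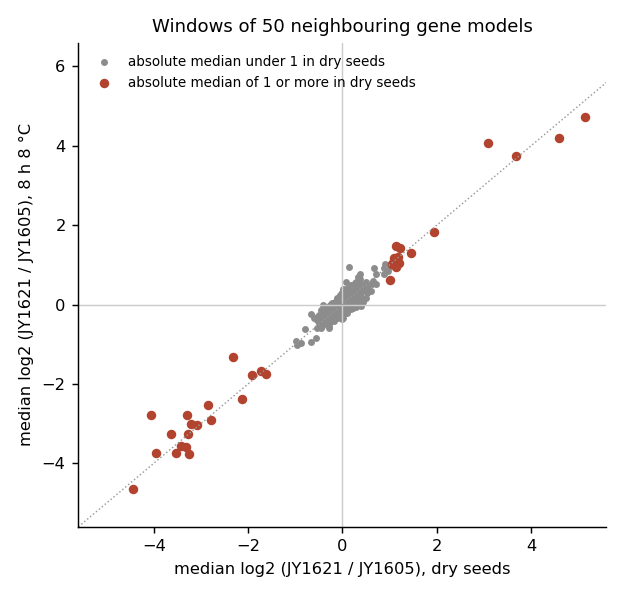
Median log2 difference between JY1621 and JY1605 over 1125 windows of 50 neighbouring gene models, after 8 h at 8 °C (y axis) against dry seeds (x axis), with the line of equal values dotted. The 35 windows chosen in dry seeds (red) all keep their sign at 8 h and 8 °C.

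The longest run of chosen windows was the start of C02, where 392 of 500 gene models were lower in JY1621 at 8 h and 8 °C and 10 higher. The median there was -3.21 (-2.87 with groups under 3 counts set to 3). These 500 gene models summed to 1040 ± 103 CPM in JY1621 and 8310 ± 151 CPM in JY1605 (SD, n = 3). No count was found for 83 of them in the 3 JY1621 libraries and for 30 in those of JY1605. Near the end of C01, 250 neighbouring gene models ran the other way, with 176 higher and 6 lower and a median of 3.3 (2.84). They summed to 20900 ± 271 CPM in JY1621 and 1460 ± 146 CPM in JY1605, and 2 of them had no count in JY1621, against 40 in JY1605. Further along C01, 150 gene models had 94 lower and 2 higher calls, with a median of -2.48 (-2.11).

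The other runs were shorter. On A01, 76 of 100 neighbouring gene models were lower, with a median of -3.26 (-2.59). On C09, 59 of 100 were lower, with a median of -2.15 (-1.93). The first window of A02 had a median of 4.06 (2.7) and the first of C04 one of 1.82 (1.78). Of the 35, a window on A03 stood at 0.63 after 8 h at 8 °C and 1.01 in dry seeds, and one on A09 at -1.33 and -2.31. Gene models in chosen windows were called in the test against dry seeds in 1.66% of cases, against 1.58% outside them. Stretches of A01, A05, A06 and A09 that were not chosen had small window medians at 8 h and 8 °C but medians of about 1 at 8 h and 25 °C. For example, a window of A05 stood at 0.01 and 1.11, and one of A09 at 0.02 and 1.02. How many of the lower calls against 8 h at 25 °C lie there was not counted.

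A smaller group was counted in 1 genotype and not in the other. At 8 h and 8 °C, 213 gene models had a mean of at least 1 CPM in JY1621 and no count in the 3 JY1605 libraries, and 67 had the reverse. The floor of 3 counts over a group equals 0.0531 CPM in JY1605 and 0.0612 CPM in JY1621. These levels and bounds use library totals without composition factors, unlike the log2 differences. Against it the 213 were at least 18.8-fold to 380-fold higher in JY1621, with a median bound of 38. The 67 were at least 15.9-fold to 390-fold lower, with a median bound of 34.1. All bounds come from the values that chose these gene models, and the lowest ones follow from the 1 CPM minimum and the floor. Most stood at low levels, with medians of 2.03 CPM in JY1621 for the 213 and 2.13 CPM in JY1605 for the 67, and 25 and 17 reached 5 CPM. Reads may be copies of 1 molecule, so the bounds allow for counting error alone.

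For some of them the genotype without counts had none at any stage. Of the 213, 157 also had no count in dry JY1605 seeds, 108 in its 8 h 25 °C seeds, 90 in its 36 h 25 °C seeds and 85 in its 36 h 8 °C seeds, and 29 had none in any of the 15 JY1605 libraries. Of the 67, 40, 39, 24 and 37 had none in these groups of JY1621, and 12 none in its 15 libraries. These numbers take no account of the level in the other genotype. In the same order of conditions, 120, 78, 60 and 60 of the 213 were counted in JY1621 only. Of the 67, 33, 35, 16 and 31 were counted in JY1605 only. The shares of all tested gene models without a count in these groups are not given. On C01 there were 25 of the 213 and 1 of the 67, on C04 23 and 0, and on A01 7 and 11. The chosen windows held 23 of the 213 and 19 of the 67.

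Single gene models show differences called in all 5 conditions and differences not called in dry seeds. They were taken by rule, with a mean of at least 8 CPM and at least 10 counts in the lower genotype. Of 349 such gene models called higher in all 5 conditions, BnaC02G0533600ZS on C02 had the largest difference. It held 400, 406 and 480 CPM in JY1621 at 8 h and 8 °C, against 0.156, 1.26 and 0.14 CPM in JY1605, where it rests on 27 counts, 23 of them in replicate 2. The groups lay far apart, with a log2 difference of 9.49 ± 0.351 (SE, edgeR adjusted p = 9.29e-16), and 11.45 without replicate 2 of JY1605. This SE understates how uncertain the low JY1605 level is, whose own change from dry seeds had an SE of 0.846. In dry seeds its level was 572 ± 13.1 CPM in JY1621 and 0.586 ± 0.49 CPM in JY1605 (SD, n = 3), a log2 difference of 10.02, and the difference in cold seeds minus that in dry seeds did not pass the test (-0.54 ± 0.871, edgeR adjusted p = 0.855). From dry to cold-imbibed JY1621 seeds its change of -0.42 ± 0.193 did not pass the test (edgeR adjusted p = 0.146), while after 8 h at 25 °C its level was 62.9 ± 5.02 CPM in JY1621 and 0.525 ± 0.244 CPM in JY1605. Of its 20 nearest tested neighbours, 4 were higher and 16 were not called.

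Of 460 called lower in all 5 conditions, BnaA01G0394300ZS on A01 had the largest difference. It held 0.34, 0.327 and 0.527 CPM in JY1621, from 18 counts, against 191, 207 and 217 CPM in JY1605. The log2 difference was -8.99 ± 0.339 (SE, edgeR adjusted p = 8.49e-16), and it lay between -8.45 and -7.49 in the 4 other conditions. In the other conditions the means lay between 0.567 and 1.33 CPM in JY1621 and between 173 and 269 CPM in JY1605. Of its 20 nearest tested neighbours, 16 were lower in JY1621, with a median of -5.3.

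BnaA07G0330800ZS on A07 had the largest increase of the genotype difference from dry to cold-imbibed seeds among 57 gene models that were not past the test in dry seeds. It held 26.1, 38.2 and 26.4 CPM in JY1621 at 8 h and 8 °C, against 3.6, 2.53 and 2.59 CPM in JY1605. In dry seeds it held 0.0763, 0.232 and 0.267 CPM in JY1621, against 0.711, 0.655 and 0.384 CPM in JY1605. The groups did not overlap in either condition and stood in opposite order, but the dry-seed values rest on 9 counts in JY1621 and 22 in JY1605. The log2 difference was 3.4 ± 0.182 after 8 h at 8 °C (SE, edgeR adjusted p = 4.79e-16) and -1.55 ± 0.656 in dry seeds, where the genotypes did not pass the test (edgeR adjusted p = 0.059). The change of the difference was 4.95 ± 0.701 (SE, edgeR adjusted p = 6.49e-05). It rose from dry seeds by 7.2 (log2) in JY1621 and by 2.25 in JY1605. After 36 h at 8 °C the levels were 226 ± 3.66 CPM in JY1621 and 266 ± 42.8 CPM in JY1605, and after 8 h at 25 °C 177 ± 22.2 and 130 ± 3.28 CPM (SD, n = 3). At both of these stages the difference stayed under the fold minimum. After 36 h at 25 °C it was called higher in JY1621 again, at 144 ± 13.2 CPM, against 52.5 ± 7.69 CPM in JY1605 (log2 difference 1.46 ± 0.124, edgeR adjusted p = 7.25e-12).

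BnaA06G0047300ZS on A06 had the largest decrease among 5, and its values were less firm. It held 18.1, 16.3 and 4.87 CPM in JY1621 at 8 h and 8 °C, against 31.3, 64.1 and 58 CPM in JY1605. Its dry-seed levels were 15.8, 9.89 and 12.4 CPM in JY1621, against 19.9, 7.5 and 10.7 CPM in JY1605. The genotypes overlapped in dry seeds and lay apart in the cold, with replicate 3 of JY1621 well below the rest. The log2 difference was -1.97 ± 0.362 (SE, edgeR adjusted p = 0.00012). This call was lost in the fit of the 6 libraries alone (edgeR adjusted p = 0.057) and with the replicate block there (edgeR adjusted p = 0.161). The change from dry seeds was -1.98 ± 0.542 (SE, edgeR adjusted p = 0.0428). That call was lost when replicate 2 or 3 of either genotype was left out, with changes of -2.17 and -1.58 (edgeR adjusted p = 0.0542 and 0.0778) for JY1621 and -1.78 and -1.88 (edgeR adjusted p = 0.114 and 0.0889) for JY1605. It was also lost with library size scaling (edgeR adjusted p = 0.0594) and in a fit of only the groups compared (edgeR adjusted p = 0.218). After 8 h at 25 °C it also stood lower in JY1621, at 15.9 ± 0.762 CPM, against 40.7 ± 1.98 CPM in JY1605 (SD, n = 3), a log2 difference of -1.36 ± 0.341 (edgeR adjusted p = 0.0022). After 36 h at 8 °C it was called lower as well, with a log2 difference of -1.15 ± 0.33 (edgeR adjusted p = 0.00601). In 36 h 25 °C seeds it was not called (0.45 ± 0.348, edgeR adjusted p = 0.241).

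**Figure D5:**
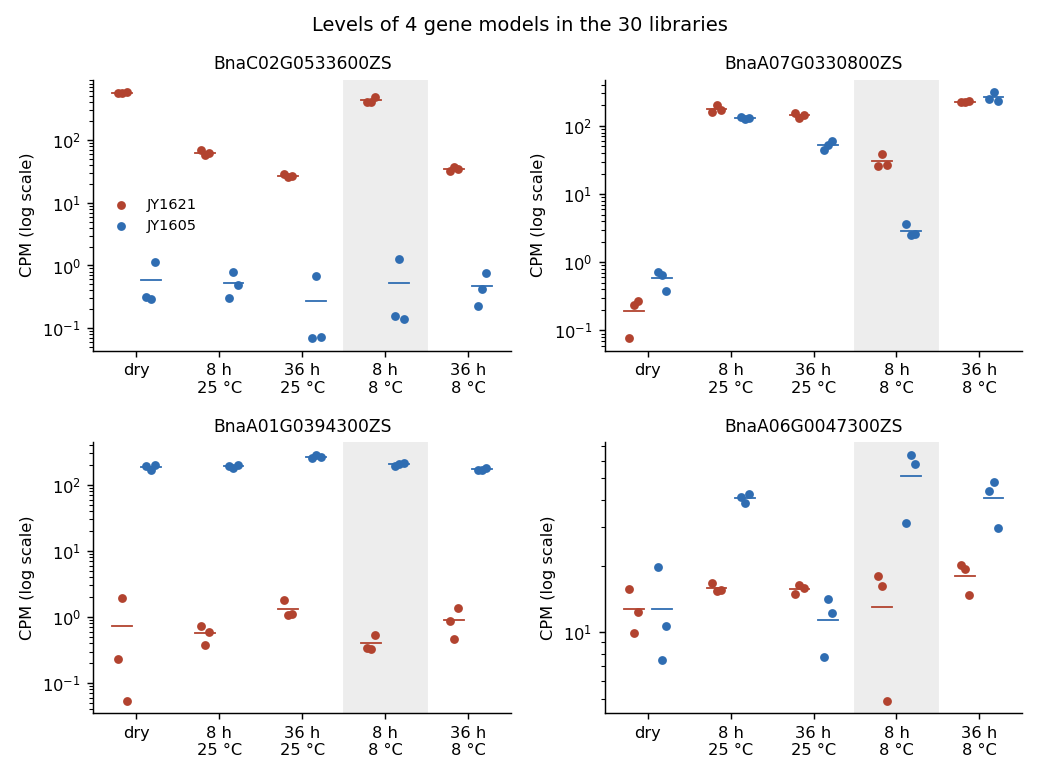
Levels (y axis, CPM on a log scale) of 4 gene models in the 30 libraries by condition (x axis), JY1621 in red left of JY1605 in blue, with points for libraries and bars for means (n = 3) and 8 h at 8 °C shaded. BnaC02G0533600ZS and BnaA01G0394300ZS keep the genotypes apart in all 5 conditions. BnaA07G0330800ZS lies at 30.3 ± 6.91 CPM in JY1621 and 2.91 ± 0.599 CPM in JY1605 after 8 h at 8 °C, and at 226 ± 3.66 and 266 ± 42.8 CPM after 36 h at 8 °C.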

How the data were processed

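The deposited table holds raw gene counts. The authors' tools, per the submitters' processing notes, included DESeq2 1.42.0, the aligner HISAT2 2.2.1 and the counter featureCounts 2.0.6. Their settings, strandedness and the build were not given in the sources used here. Gene models were kept by filterByExpr (minimum count 10, minimum total 15), which equals 0.531 CPM in 3 libraries. Groups come from the sample titles. All 30 libraries entered one fit with a mean per group (edgeR 4.0.16, quasi-likelihood with robust estimation, TMM factors, R 4.3.3). Standard errors are the size of the log2 difference divided by the square root of F. They can be too small where a group is near the floor of counts. CPM of gene models carry TMM factors. Shares, counts of gene models at 1 CPM and the values of gene models counted in 1 genotype only use library totals. Functions were tested on simulated counts. Depth of the 6 libraries was 15556806 to 22967687 counts.

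The members and lists were chosen with earlier results of these data known. Named gene models were limited to 2 in each direction: one called in all 5 conditions with the largest fold change, and one not passing the test in dry seeds with the largest change of the genotype difference. The sets from warm imbibition were added after seeing the data. Alternatives were other scalings, filters (1 added after seeing the data), tests, fits and fold minimums, and each library left out.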

Additional observations from a re-analysis of the deposited data

Results flagged for a closer look

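The genotype difference at 8 h and 8 °C differed from that of another condition, by the test of the difference itself, in these results (edgeR quasi-likelihood test). Against dry seeds 687 gene models had a higher and 229 a lower log2 difference, and against 8 h at 25 °C 4016 and 3427. Stretches of neighbouring gene models on A01, A05, A06 and A09 shifted together between 8 h at 25 °C and 8 h at 8 °C. The example windows of A05 and A09 given above also had medians of 1.09 and 0.96 in 36 h 8 °C seeds. For BnaA07G0330800ZS the difference was 4.95 ± 0.701 higher than in dry seeds (SE, edgeR adjusted p = 6.49e-05) and 2.96 ± 0.222 higher than after 8 h at 25 °C (edgeR adjusted p = 3.29e-11). At 8 h and 8 °C all 3 JY1621 libraries lay above all 3 JY1605 libraries. For BnaC02G0533600ZS it was 2.58 ± 0.773 higher than after 8 h at 25 °C (SE, edgeR adjusted p = 0.0167), and 4.54 without replicate 2 of JY1605. Here JY1605 was near the floor in both conditions, with 27 counts at 8 °C and 37 at 25 °C. The JY1621 levels were 429 and 62.9 CPM. For BnaA06G0047300ZS it was -1.98 ± 0.542 relative to dry seeds (SE, edgeR adjusted p = 0.0428), a call that 7 of 13 alternatives kept, 1 of them the unfiltered fit described with the processing alternatives, whose p-values ignore the spread of single gene models. Another of the 7 is the looser filter, added after seeing the data (edgeR adjusted p = 0.045).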

How the results depend on the processing

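With DESeq2's size factors or Wald test, none of the counts given moved by over 1.5 times (the Wald test left the adjusted p of 10116 gene models undefined against dry seeds), and of 12158 calls at 8 h and 8 °C 11949 were made in the same direction by the Wald test and 11095 with library size scaling. Fits of only the groups compared gave 5486 higher and 3956 lower calls. Library size scaling gave 118 lower calls against dry seeds, and 6481 higher and 1643 lower against 8 h 25 °C. Calls made in cold 8 h seeds alone, meaning no call in the same direction elsewhere, numbered 2127 higher and 145 lower. The same scaling gave 3163 higher in the set that rose in warm imbibition, and 375 higher and 460 lower in the set that fell. Without the low-count filter 560 were lower against dry seeds. That fit of 86119 gene models estimated an infinite prior df, so each gene model took the trend's spread in place of its own, and its p-values are too small to speak for any result. A looser filter of 30 counts in total, added after seeing this, kept 67109 gene models with a prior df of 31.9 and gave 618 higher and 243 lower against dry seeds, and 7418 and 5500 between the genotypes.

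Without a fold minimum there were 12082 higher and 12554 lower calls, 1214 and 1159 against dry seeds, 7051 and 8191 against 8 h 25 °C, 7887 and 8883 shared with dry seeds, 3114 and 3353 in all 5 conditions, 996 lower in cold 8 h seeds alone, 4248 and 2929 in the set that rose and 2097 and 4239 in the set that fell. With a log2 minimum of 2 these were 3379 and 2387, 198 and 55, 1384 and 355, 2159 and 1842, 1177 and 1177, 727 and 155, 358 and 62, and 109 and 163. Windows of 25 gave 82 chosen, 69 of them as large after 8 h at 8 °C, and windows of 100 gave 14 and 13. Allowing 3 counts and asking for 5 CPM left 72 gene models in JY1621 alone and 27 in JY1605 alone. Where a count moved, the cause was not tested beyond what the change of threshold itself does.

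Leaving out 1 library at 8 h and 8 °C gave 6520 to 6980 higher and 4970 to 5198 lower calls, and against dry seeds 483 to 786 higher and 101 to 392 lower ones. Gene models counted in 1 genotype alone ranged over 210 to 319 for JY1621 and 63 to 93 for JY1605. Leaving out a library of the genotype without counts also loosens the rule, as fewer libraries then need to lack counts. The log2 difference of BnaC02G0533600ZS ranged over 9.05 to 11.45 and that of BnaA07G0330800ZS over 3.19 to 3.6 across all settings. BnaA06G0047300ZS lost its call in the fit of the 6 libraries (-1.92, edgeR adjusted p = 0.057) and with the replicate block there (-1.96, edgeR adjusted p = 0.161).

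Same-numbered libraries of the genotypes did not deviate together (correlations -0.027, 0.00092 and 0.0043), so the numbers gave no sign of a pairing. With deviations centred within groups of 3 libraries, these values cannot exclude one. With the replicate block in all 30 libraries 6927 were higher and 5125 lower. In the 6 libraries 5345 and 3920 were, of the 44736 gene models kept there. Leaving out the chosen windows, an alternative added after seeing the data, gave 6519 and 4428. Depth limits gene models under 0.5 CPM, whose median standard error was 0.84.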

Other observations

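The A and C subgenomes differed little in their shares of calls at 8 h and 8 °C. On the A chromosomes 3363 of 27592 gene models were higher in JY1621 (12.2%) and 2657 lower (9.63%), and on the C chromosomes 3600 of 29150 were higher (12.3%) and 2451 lower (8.41%). Unplaced scaffolds held fewer, 46 higher and 41 lower of 1203. The gene models whose genotype difference was higher than in dry seeds were found on every chromosome, from 18 on A08 (0.902%) to 60 on A09 (1.35%). By share, C02 was lowest with 19 (0.673%) and A10 highest with 34 of 2024 (1.68%). C01, with the highest share of higher genotype calls, held 28 (0.994%).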
